A study of Mus musculus with 18 samples.

Results

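The comparison described here set bone-marrow-derived macrophages (BMDMs) that had received the conditioned medium of resting enteric glia against BMDMs kept in RPMI, a standard culture medium. It holds 8 of the 18 libraries of the series, chosen by their sample labels and not by any measured value. In 4 libraries (CM-veh) the cells had spent 3 h in medium taken from enteric glial cell (EGC) cultures after 24 h with vehicle, and in 4 libraries (RPMI) they had spent 3 h in RPMI. Another 4 libraries (CM-IL1) came from BMDMs given medium of EGCs that had been treated with IL-1β at 10 ng/ml for 24 h, and their values are given only beside those of CM-veh. All BMDMs carried the Il1R1-KO genotype, a loss of the receptor for IL-1, in the RPMI group too. According to the study, the knockout kept IL-1β left in the medium from acting on the macrophages directly, and the BMDMs were grown from femoral marrow in RPMI with serum and recombinant CSF1, the growth factor of macrophages.

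EGCs are the glia of the gut wall, and they lie close to the macrophages of the muscle layer. Macrophages read their surroundings through receptors for cytokines, growth factors, lipids and nutrients, and within hours they change the genes of chemokines, feedback inhibitors, metabolism and the cell cycle. Cultured BMDMs depend on growth factor signals such as that of CSF1, which keep FOXO transcription factors out of the nucleus and support ribosome production and glucose uptake. The EGCs were kept in neurobasal medium with the supplements B27 and N2 and EGF, a growth factor. A medium of that kind without glia was not analysed here, so products of the glia and the change of base medium cannot be told apart in any difference below. The study lists no serum or CSF1 for the glial medium, and the sources do not say if the RPMI of the 3 h held them. A change in serum or CSF1 therefore cannot be told apart either. The EGCs came from the muscle layer of the small bowel, and the study describes the cultures as mostly glia with small numbers of neurons and fibroblasts.

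The values are the authors' means of each group, scaled so that the means of all genes add up to 996561 for CM-veh and to 996052 for RPMI. One mean per group leaves no spread between libraries, so no p-value is given, a difference has no replicate check, and higher or lower below describes these means alone. Of 11200 genes with a row, 7237 had a mean of at least 10 in at least 1 of the groups and were kept. A gene could thus be kept through 1 group alone, and calls of such genes depend in part on this rule. A gene was called higher with CM-veh at a ratio over 1.5 and lower at a ratio under the inverse of 1.5. By this limit 539 genes (7.45% of the kept genes) were higher with CM-veh and 456 (6.30%) were lower. Every count of list members below is to be read beside these shares. Over 2-fold, 194 genes were higher and 106 were lower, and over 5-fold 28 were higher and 5 were lower. The median log2 ratio of the kept genes was 0.01, and 56.4% of them lay within 1.2-fold of equal means.

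**Figure D1:**
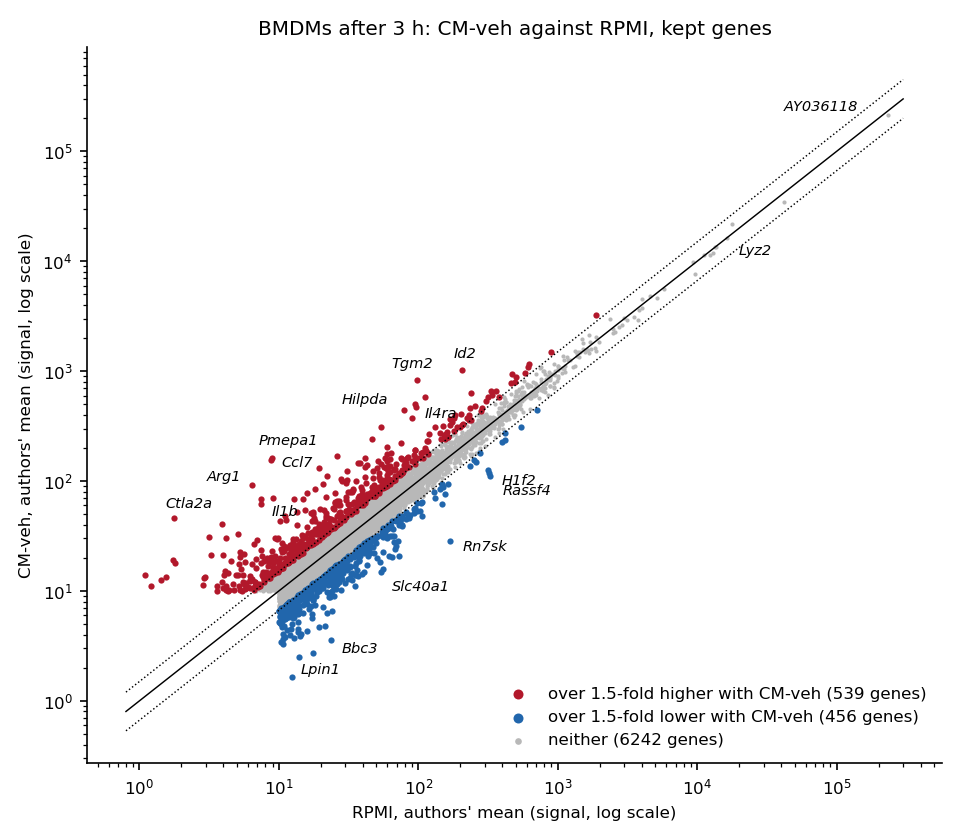
Authors' mean of each kept gene with CM-veh (vertical axis) and with RPMI (horizontal axis), both on log scales in signal units. The solid line marks equal means and the dotted lines a ratio of 1.5 either way; 539 genes lie above the upper line (red) and 456 below the lower line (blue), with the genes farthest above it at low means in RPMI.

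The 2 directions were not spread alike over the range of levels. Among the 1314 genes whose higher mean was at least 100, 144 (11.0%) were higher with CM-veh and 26 (1.98%) were lower. Among the 2031 genes with a higher mean between 10 and 20, 129 (6.35%) were higher and 197 (9.70%) were lower. Below the limit of 10, 9.01% of 3963 genes were higher and 19.1% were lower, and these genes enter no count below. Abundant transcripts past the fold were thus mostly higher with CM-veh, and scarce ones were more often lower. Whether low counts in some libraries moved these shares was not tested, since no depth per library is known.

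**Figure D2:**
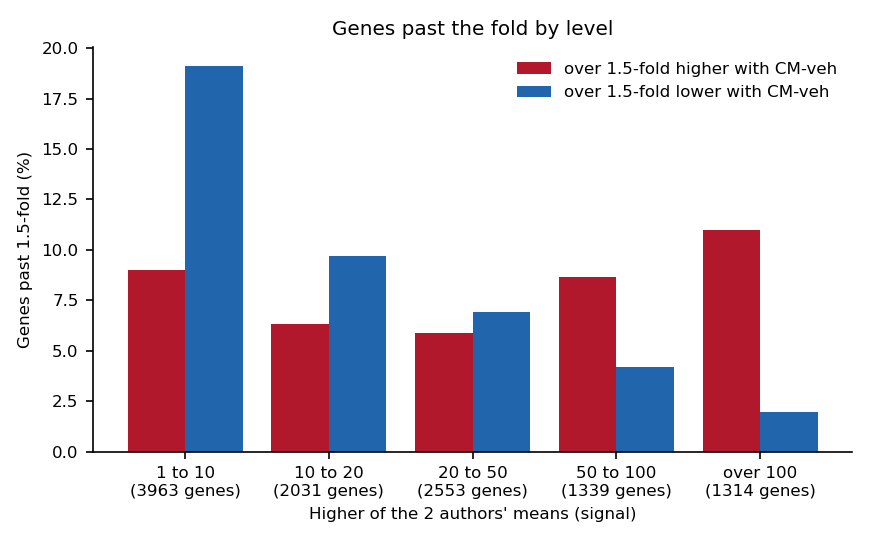
Share of genes past 1.5-fold (vertical axis, percent) by the higher of the 2 authors' means (horizontal axis), with genes higher with CM-veh in red and genes lower with CM-veh in blue. The red share is 11.0% in genes over 100 and 9.01% in genes under 10, whereas the blue share is 1.98% in genes over 100 and 19.1% in genes under 10.

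The cells showed the markers of macrophages in both media. All 24 macrophage genes listed were kept, with a median log2 ratio of 0.01. Lyz2, the lysozyme of myeloid cells, had a mean of 16195 with CM-veh and 16250.4 with RPMI, and Csf1r, the CSF1 receptor, 784 with CM-veh and 943 with RPMI. Cd14, a co-receptor for bacterial lipids, was the macrophage gene farthest from equal means, at 376 with CM-veh, against 90.8 with RPMI. Cebpb, a transcription factor of myeloid cells, and Fcgr1, a high-affinity antibody receptor, were 3.22-fold and 1.95-fold higher, and Mertk, a receptor for the uptake of dying cells, was 1.70-fold lower. The defining markers of T cells (Cd3e, Cd3d), B cells (Cd79a), glia (Gfap, S100b, Sox10) and red cells (Hba-a1) were not among the genes analysed here. Single other markers were kept. The B cell gene Ighm, an antibody heavy chain, was 1.97-fold lower at 22.2 with CM-veh and 43.7 with RPMI, and Nes, a gene of immature glia and other cells, had 40.7 with CM-veh and 38.8 with RPMI. Over the markers with a row the summed means were 26.5 with CM-veh and 51.1 with RPMI for B cells (2 of 7 genes), 45.6 with CM-veh and 41.6 with RPMI for glia (2 of 12) and 80.0 with CM-veh and 90.1 with RPMI for neutrophils (4 of 11). The neutrophil gene S100a8 had 37.0 with CM-veh and 34.2 with RPMI, S100a9 had 29.6 with CM-veh and 33.2 with RPMI, and Csf3r, the receptor of the growth factor G-CSF, was 1.72-fold lower at 11.8 with CM-veh and 20.2 with RPMI. Whether a few cells of other types took part in the differences below was not tested. The collagen gene Col1a1 of fibroblasts had 24.1 with CM-veh and 26.1 with RPMI, and over the 6 fibroblast markers with a row the summed means were 86.7 with CM-veh and 96.5 with RPMI. In bulk samples such as these, fewer cells of a type and less RNA per cell cannot be told apart. Il1r1 itself had a mean of 8.69 with CM-veh, against 2.88 with RPMI, below the limit of 10 in both groups. The libraries read the 3′ ends of transcripts, and the sources used here do not say which part of the gene the knockout removed, so Il1r1 does not check the genotype here.

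A few gene entries took much of the summed means in both groups. AY036118 took 21.4% of the summed means with CM-veh and 23.5% with RPMI. Which RNA the reads of this entry come from was not tested. The entry mt-Rnr2, the large ribosomal RNA of mitochondria, took 3.49% with CM-veh and 4.20% with RPMI. The next genes by mean were Actb (21748 with CM-veh and 17884 with RPMI), Lyz2 (above), Ftl1 and Fth1, the ferritin chains (13538 with CM-veh and 13688 with RPMI for Ftl1, and 13559 with CM-veh and 13417 with RPMI for Fth1), CT010467.1 (11953 with CM-veh, against 12892 with RPMI), Psap (11280.2 with CM-veh and 12319 with RPMI), Apoe (11356 with CM-veh and 11120.5 with RPMI) and Ctsd (9889 with CM-veh and 9351 with RPMI). None of these 10 genes was past the fold.

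The genes with the largest ratios had varied roles. Ctla2a, an inhibitor of cysteine proteases of the cathepsin type, had a mean of 45.8 with CM-veh, against 1.76 with RPMI, the largest ratio of all kept genes (26.1-fold). Its close relative Ctla2b can share its reads, so the split between them is uncertain. The gene lies at chr13:60934155-60936625 in GRCm38, and its promoter is shown because it heads the higher genes. The window of 250 bases before the start to 50 bases after it (chr13:60936576-60936875, minus strand of GRCm38.p6, RefSeq) held 1 match to TGANTCA, the site of AP-1 factors, printed in capitals, as did the window of its other start.
Ctla2a promoter: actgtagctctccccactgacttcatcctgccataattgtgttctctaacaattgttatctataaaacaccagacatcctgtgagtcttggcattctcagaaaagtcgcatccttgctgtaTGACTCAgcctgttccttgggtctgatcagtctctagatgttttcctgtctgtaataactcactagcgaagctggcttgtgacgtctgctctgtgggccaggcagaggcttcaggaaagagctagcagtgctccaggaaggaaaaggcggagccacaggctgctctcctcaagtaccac
That motif, searched on both strands, stood in 8.62% of 522 promoter windows of the higher genes, 5.24% of 496 windows of the lower genes and 5.21% of 7203 windows of all kept genes. Windows were matched by symbol for 407 of the 539 higher genes, 374 of the 456 lower genes and 5633 of the 7237 kept genes, and a gene with several starts has several windows. The windows of a single chromosome were left out before matching, so genes there have none in any motif share given here.

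Most of the kept chemokines were higher with CM-veh. Of the 9 kept chemokines that attract monocytes and lymphocytes, 7 were higher and 0 lower, with a median log2 ratio of 0.83. Ccl7 and Ccl2, both ligands of the monocyte receptor CCR2 and neighbours on chromosome 11 (chr11:82045712-82047525 and chr11:82035571-82037453), stood far ahead of the others. Ccl7 had a mean of 154 with CM-veh, against 8.76 with RPMI, a 17.6-fold difference. Ccl2 had 41.0 with CM-veh, against 3.93 with RPMI, a 10.4-fold difference. Ccl3 and Ccl4, which attract monocytes and T cells, were 2.81-fold and 1.73-fold higher, and Cxcl14 was 2.52-fold higher. The abundant Ccl6 and Ccl9 had ratios nearer to 1 but large differences in mean, Ccl6 at 3252 with CM-veh and 1890.1 with RPMI and Ccl9 at 1082 with CM-veh and 609 with RPMI. Ccl5 (137 with CM-veh, against 141 with RPMI) and Cxcl16 (124 with CM-veh, against 133 with RPMI) were not past the fold. Ccl12, a further CCR2 ligand, stayed under the limit of 10, at 2.11 with CM-veh, against 0.242 with RPMI.

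The 3 kept chemokines of the neutrophil group were all higher. Cxcl2, a ligand of the neutrophil receptor CXCR2, had a mean of 161 with CM-veh, against 41.3 with RPMI. The platelet factor genes Ppbp and Pf4, which macrophages make too, had means of 15.2 with CM-veh and 4.09 with RPMI for Ppbp, and of 1496 with CM-veh and 890.4 with RPMI for Pf4. Both also stood on the list of red cell and platelet precursor markers, whose other 9 genes were not analysed here. Cxcl1 had only 2.03 with CM-veh, against 1.43 with RPMI. The Cxcl2 promoter is shown because Cxcl2 was the neutrophil ligand with the largest ratio. Its window (chr5:90903649-90903948, plus strand of GRCm38.p6) held 1 match to GGANTTTCC, a site of NF-kB factors, in capitals.
Cxcl2 promoter: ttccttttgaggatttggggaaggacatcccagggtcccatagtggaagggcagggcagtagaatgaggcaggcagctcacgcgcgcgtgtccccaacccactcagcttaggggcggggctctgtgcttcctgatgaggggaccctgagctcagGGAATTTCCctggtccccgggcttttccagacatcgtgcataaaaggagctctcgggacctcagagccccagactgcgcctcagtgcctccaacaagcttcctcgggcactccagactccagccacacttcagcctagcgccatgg
The motif was rare, in 9 windows (1.72%) of the higher genes, 12 (2.42%) of the lower genes and 101 (1.40%) of all kept genes.

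Among cytokines and growth factors, 5 of 9 kept members were higher and 0 lower. Il1b, the gene of IL-1β at chr2:129364570-129371139, had a mean of 67.9 with CM-veh, against 7.50 with RPMI, a 9.06-fold difference. Il1rn, the secreted antagonist of the same receptor, had 469 with CM-veh, against 96.0 with RPMI, a 4.88-fold difference. Agonist and antagonist were therefore both higher, in cells that lack the receptor. Hbegf, a ligand of the EGF receptor, had a mean of 33.1 with CM-veh, against 5.08 with RPMI. Vegfa, the growth factor of blood vessels, had 239.8 with CM-veh, against 46.5 with RPMI. Tnf, with 26.4 with CM-veh and 17.0 with RPMI, lay just past the fold. Tgfb1 (76.9 with CM-veh, against 58.7 with RPMI), Il18 (15.6 with CM-veh, against 14.97 with RPMI), Pdgfb (19.6 with CM-veh, against 22.7 with RPMI) and Igf1 (379 with CM-veh, against 488 with RPMI) were not past it. Osm, a cytokine of the IL-6 family, had 4.92 with CM-veh, against 0.530 with RPMI, and Csf1 had 9.98 with CM-veh, against 4.36 with RPMI, both under the limit of 10 as means. Il6, Il10, Il12b and Ifnb1 were not analysed here.

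**Figure D3:**
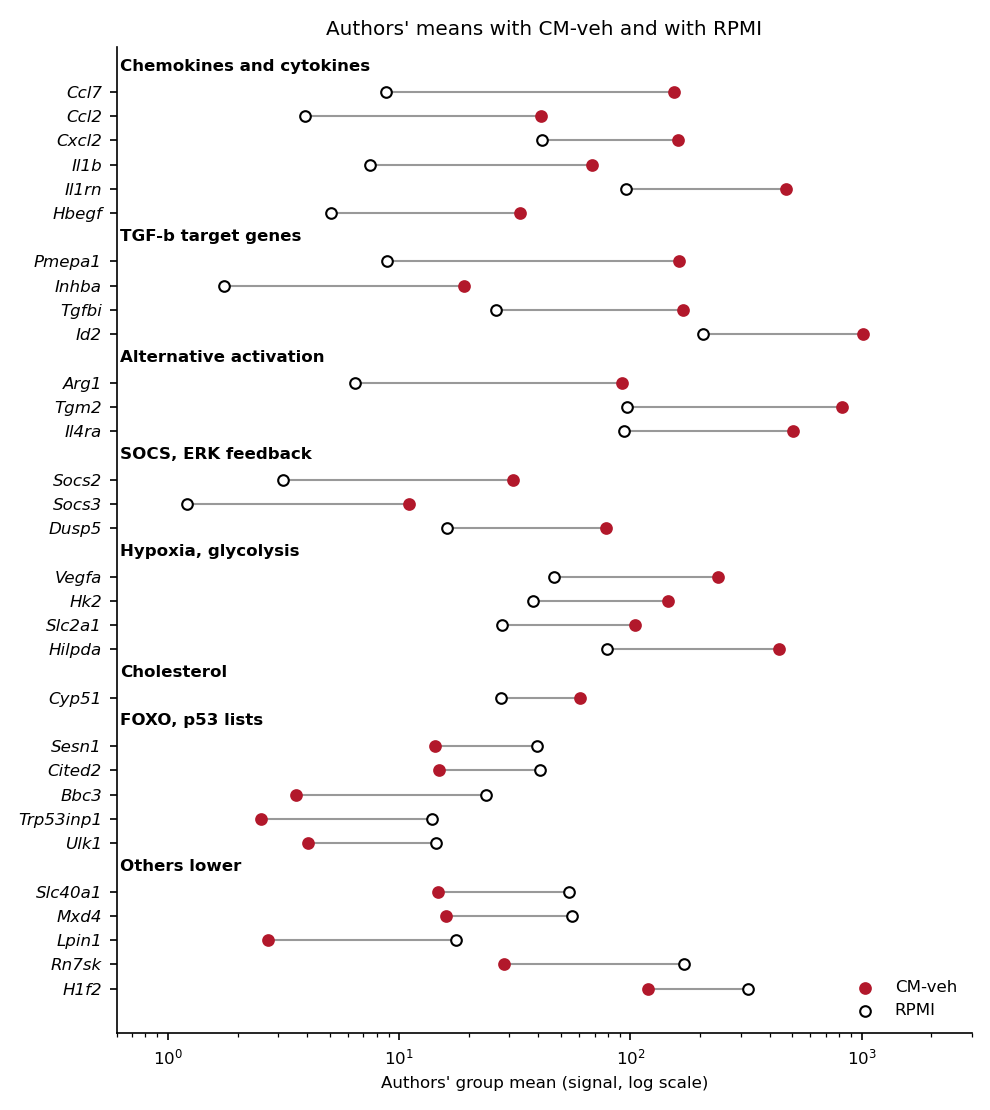
Authors' means (horizontal axis, signal units on a log scale) of 31 genes named in the text, 1 gene per row, with CM-veh as filled red circles and RPMI as open circles. In the 6 upper groups every CM-veh mean lies to the right of the RPMI mean, from Cyp51 (60.7 with CM-veh and 27.6 with RPMI) to Pmepa1 (162 with CM-veh and 8.86 with RPMI), and in the 2 lower groups every CM-veh mean lies to its left.

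A list of TGF-β, activin and BMP genes and SMAD targets held some of the largest ratios. TGF-β is a cytokine that signals through SMAD proteins. The receptors and SMADs named below were not past the fold. Of 22 kept members of the TGF-β, activin and BMP list, 6 were higher and 1 lower, with a median log2 ratio of 0.25. Pmepa1, a membrane protein that restrains TGF-β signaling, lies at chr2:173224458-173276533 and had a mean of 162 with CM-veh, against 8.86 with RPMI. Inhba, a subunit of activin, had 19.2 with CM-veh, against 1.75 with RPMI. Both were over 10-fold higher (18.3-fold and 11.0-fold). Tgfbi, a matrix protein named for its induction by TGF-β, had a mean of 168 with CM-veh, against 26.2 with RPMI, and Id2, an inhibitor of helix-loop-helix factors, had 1015 with CM-veh, against 205 with RPMI. Skil, a repressor of SMADs, was 1.66-fold higher. Id1, a target of BMP signals, had means under the limit, 7.29 with CM-veh, against 0.836 with RPMI. The exception was Bmp2, a ligand of the BMP receptors, which was 4.42-fold lower, at 4.85 with CM-veh, against 21.4 with RPMI. The receptors Tgfbr1 (24.6 with CM-veh, against 21.0 with RPMI) and Tgfbr2 (21.9 with CM-veh, against 26.7 with RPMI) and the SMAD genes Smad2 (17.7 with CM-veh and 17.1 with RPMI), Smad3 (22.6 with CM-veh and 21.0 with RPMI) and Smad4 (30.1 with CM-veh and 30.3 with RPMI) were not past the fold. Thbs1, a matrix protein that can activate latent TGF-β, had 577 with CM-veh, against 112 with RPMI.

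Several genes of alternative activation, the state that IL-4 brings about in macrophages, were higher, and others had little RNA in both media. Of 13 kept members 5 were higher and 0 lower, with a median log2 ratio of 0.52. Arg1, the arginase that turns arginine into ornithine, lies at chr10:24915221-24927484 and had a mean of 92.1 with CM-veh, against 6.45 with RPMI, a 14.3-fold difference. Tgm2, a protein cross-linking enzyme, had 824 with CM-veh, against 97.1 with RPMI, which made it the gene with the largest difference in mean after Actb, Ccl6 and Id2. Il4ra, the IL-4 receptor chain, had 505 with CM-veh, against 94.1 with RPMI. Msr1, a scavenger receptor, was 1.89-fold higher. Mrc1, the mannose receptor, had 214 with CM-veh, against 170.0 with RPMI, and Clec10a, a lectin, 21.4 with CM-veh, against 23.8 with RPMI, neither past the fold. Chil3, a chitinase-like protein that is a common marker of this state in mice, had 8.24 with CM-veh, against 9.39 with RPMI, below the limit, and Retnla, Ccl17 and Ccl24 were not analysed here. The list thus held genes more than 5-fold higher and standard markers that were scarce in both groups.

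Arg1 also stands at the head of the polyamine pathway, in which ornithine is made into putrescine, spermidine and spermine. Of 13 kept members 4 were higher and 0 lower. Odc1, the ornithine decarboxylase, had a mean of 281 with CM-veh, against 159.9 with RPMI, and Srm, the spermidine synthase, 33.7 with CM-veh, against 17.8 with RPMI. Smox, the oxidase that breaks down spermine, had 110.3 with CM-veh, against 22.2 with RPMI, a 4.97-fold difference. Sat1, an enzyme of polyamine export and breakdown, lay in the other direction but not past the fold, at 65.6 with CM-veh, against 95.4 with RPMI. The median of the list was 0.03, so the higher genes were a minority of it.

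Feedback inhibitors of cytokine receptors were among the higher genes. Of 21 kept members of the SOCS and STAT3 list 10 were higher and 2 lower, with a median log2 ratio of 0.54. Socs2 and Socs3, which block JAK kinases and their receptors, had means of 31.1 with CM-veh and 3.14 with RPMI for Socs2, and of 11.0 with CM-veh and 1.21 with RPMI for Socs3. Cish, another member of that family, was below the limit at 7.44 with CM-veh, against 0.412 with RPMI. Stat3 itself was 1.99-fold higher, and Pim1, a kinase gene under STAT control, 2.38-fold. Nfil3, a transcription factor, was 3.12-fold higher. The 2 lower members were receptors, Il10ra of IL-10 (23.04 with CM-veh, against 44.1 with RPMI) and Il6st, the shared chain of the IL-6 family (57.0 with CM-veh, against 94.3 with RPMI). Csf2rb, the shared chain of the receptors for GM-CSF, IL-3 and IL-5, had 637 with CM-veh, against 237 with RPMI. Its near copy Csf2rb2 was 1.61-fold higher, and reads of the 2 may be exchanged. A Socs3 promoter window is shown because STAT factors act on this gene in textbook accounts of this feedback. The window (chr11:117969317-117969616, minus strand of GRCm38.p6) held 1 match to TTCNNNGAA, a STAT site, in capitals. It lies inside the annotated span of the gene (chr11:117966079-117970047). Whether this match is the site of those accounts was not tested.
Socs3 promoter: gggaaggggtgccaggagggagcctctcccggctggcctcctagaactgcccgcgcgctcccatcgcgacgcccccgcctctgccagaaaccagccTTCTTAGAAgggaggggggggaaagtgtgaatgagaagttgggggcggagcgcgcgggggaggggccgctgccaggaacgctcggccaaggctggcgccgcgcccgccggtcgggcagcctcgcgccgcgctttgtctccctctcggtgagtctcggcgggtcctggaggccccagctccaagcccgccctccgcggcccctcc
The motif stood in 7.66% of the windows of the higher genes, 7.86% of those of the lower genes and 6.48% of all.

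Early response genes and inhibitors of the ERK kinase pathway held many higher members. Of 18 kept early genes 10 were higher and 1 lower, with a median log2 ratio of 0.66. Ier3, an early gene that protects cells from death, had a mean of 308 with CM-veh, against 53.7 with RPMI. Fosl2, a subunit of AP-1, had 146 with CM-veh, against 37.2 with RPMI, and Maff, a small MAF factor, 11.2 with CM-veh, against 2.85 with RPMI. Fos, Junb and Egr1 lay between 1.58-fold and 1.95-fold higher. Atf3, a stress factor of the same family, was the exception, at 92.0 with CM-veh, against 147 with RPMI. Of 12 kept ERK feedback genes 7 were higher and 1 lower, with a median log2 ratio of 0.98. Dusp5 and Dusp6, phosphatases that switch ERK off, had means of 78.4 with CM-veh and 16.0 with RPMI for Dusp5, and of 54.8 with CM-veh and 21.2 with RPMI for Dusp6. Spry2, an inhibitor of receptor kinase signals, had 20.6 with CM-veh, against 7.60 with RPMI, and Phlda1 54.6 with CM-veh, against 15.5 with RPMI. Dusp1, a phosphatase that acts more on p38 and JNK, had 41.6 with CM-veh, against 46.3 with RPMI, not past the fold, and Trib3, a stress gene of the ATF4 pathway, was 2.77-fold lower. Ier3 is counted in both lists and in the NF-kB list further down.

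Genes that respond to cyclic AMP, the second messenger of receptors for prostaglandins and adenosine, included Crem. Crem, whose short forms repress CREB targets, had a mean of 70.7 with CM-veh, against 9.07 with RPMI. Pde4b, which breaks down cyclic AMP, had 61.4 with CM-veh, against 25.7 with RPMI, and Adora2b, a receptor for adenosine, 30.3 with CM-veh, against 4.14 with RPMI. Rgs2, an inhibitor of G protein signals, went the other way, at 228 with CM-veh, against 399 with RPMI. On a list of cyclic AMP genes chosen after the values were seen, 5 of 8 kept members were higher and 2 lower. Jag1, a ligand of Notch receptors, had 61.8 with CM-veh, against 7.43 with RPMI, and Pdpn, a mucin-like membrane protein, 133 with CM-veh, against 19.2 with RPMI. Vdr, the vitamin D receptor, had 21.2 with CM-veh, against 3.23 with RPMI.

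Many genes of glucose uptake, glycolysis and the hypoxia factor HIF-1 were higher, and no member was lower. Of 30 kept members 14 were higher and 0 lower, with a median log2 ratio of 0.52. Slc2a1, the glucose transporter GLUT1, had a mean of 105 with CM-veh, against 27.9 with RPMI, and Hk2, the hexokinase that traps glucose in the cell, 145 with CM-veh, against 38.0 with RPMI. Slc16a3, which exports lactate, had 95.4 with CM-veh, against 30.2 with RPMI. Further along the pathway the ratios were nearer to 1, with Pfkl 1.96-fold, Eno1 1.92-fold, Pkm 1.70-fold and Ldha 1.57-fold higher. Gapdh (208 with CM-veh, against 166 with RPMI), Tpi1 (168 with CM-veh, against 136 with RPMI) and Aldoa (731 with CM-veh, against 639.8 with RPMI) were not past the fold. Hif1a, the oxygen-regulated subunit of HIF-1, was 1.58-fold higher, at 93.1 with CM-veh and 58.9 with RPMI. Hilpda, a lipid droplet protein that HIF-1 induces, had 440.3 with CM-veh, against 79.1 with RPMI, a 5.56-fold difference, and Egln3, an oxygen sensor, was under the limit at 8.47 with CM-veh, against 1.51 with RPMI. Other genes that low oxygen induces did not follow, since Pdk1 (19.4 with CM-veh, against 19.8 with RPMI), Ndrg1 (31.4 with CM-veh, against 31.5 with RPMI) and Bnip3l (68.1 with CM-veh, against 84.6 with RPMI) were not past the fold.

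The promoters of Slc2a1, Hk2 and Hilpda are shown because these 3 genes were higher together. Capitals mark ACGTG, the core of the HIF-1 site, or its reverse complement CACGT, which also lies inside the E-box CACGTG.
Hk2 promoter (chr6:82774405-82774704, minus strand of GRCm38.p6): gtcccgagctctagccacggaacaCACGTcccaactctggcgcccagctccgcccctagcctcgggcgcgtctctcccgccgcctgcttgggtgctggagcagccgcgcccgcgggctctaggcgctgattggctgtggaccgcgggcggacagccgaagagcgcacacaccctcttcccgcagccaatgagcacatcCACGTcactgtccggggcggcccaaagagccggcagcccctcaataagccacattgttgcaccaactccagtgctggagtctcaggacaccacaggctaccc
Slc2a1 promoter (chr4:119108495-119108794, plus strand of GRCm38.p6): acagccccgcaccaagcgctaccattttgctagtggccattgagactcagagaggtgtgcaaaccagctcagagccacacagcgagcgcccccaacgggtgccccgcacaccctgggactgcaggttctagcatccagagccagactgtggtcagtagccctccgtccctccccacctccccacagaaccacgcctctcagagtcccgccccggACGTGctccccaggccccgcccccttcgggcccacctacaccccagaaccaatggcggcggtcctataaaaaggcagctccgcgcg
Hilpda promoter (chr6:29272376-29272675, plus strand of GRCm38.p6): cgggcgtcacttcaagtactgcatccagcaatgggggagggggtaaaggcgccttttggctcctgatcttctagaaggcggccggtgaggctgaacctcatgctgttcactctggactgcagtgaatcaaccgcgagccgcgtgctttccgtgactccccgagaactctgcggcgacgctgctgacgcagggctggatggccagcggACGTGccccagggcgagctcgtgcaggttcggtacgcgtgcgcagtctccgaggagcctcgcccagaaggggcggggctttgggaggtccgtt
The core was common, in 28.4% of the windows of the higher genes, 22.4% of those of the lower genes and 26.9% of all windows. Slc2a1 and Hk2 have 1 window each, and the Hilpda window is the one of its starts that held the core.

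Of the genes of cholesterol synthesis and uptake a part was higher, again with no member lower. SREBP2 is the factor that switches such genes on when cholesterol in the cell is low. Among 20 kept members 8 were higher and 0 lower, with a median log2 ratio of 0.55. Cyp51, an enzyme of the late pathway, had a mean of 60.7 with CM-veh, against 27.6 with RPMI, and Sqle, the squalene epoxidase, 26.9 with CM-veh, against 15.7 with RPMI. Cyp51 was 2.20-fold and Sqle 1.71-fold higher, and both had lower means with CM-IL1 than with CM-veh, as given further down. Fdft1, Stard4, Acat2 and Insig1 lay just inside the fold, between 1.44-fold and 1.49-fold.

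Of 9 kept genes of fatty acid synthesis and targets of the factor SREBP1, 2 (22.2%) were higher and 1 (11.1%) lower. Fasn, the fatty acid synthase, had a mean of 25.2 with CM-veh, against 11.7 with RPMI, and Scd2, a desaturase, 23.3 with CM-veh, against 7.44 with RPMI. The lower member was Lpin1, a phosphatidate phosphatase and coactivator, which was kept through its RPMI mean alone. Lpin1 was 6.45-fold lower, at 2.72 with CM-veh, against 17.6 with RPMI, one of the lowest ratios of all kept genes. Of 12 kept targets of LXR, the sensor of oxidized cholesterol, 2 were higher, Arl4c (202 with CM-veh, against 59.3 with RPMI) and Scd2, whereas the cholesterol exporters Abca1 (135 with CM-veh, against 104 with RPMI) and Abcg1 (30.7 with CM-veh, against 27.9 with RPMI) were not past the fold. Of 22 kept genes of PPAR factors and lipid droplets 3 (13.6%) were higher and 1 (4.55%) lower, beside 7.45% and 6.30% of all kept genes. Apart from Hilpda these were Dgat1 (2.20-fold higher), Ppard (1.57-fold higher) and Cpt1a, the gate of fatty acid oxidation (1.65-fold lower). The fatty acid carriers and lipase Fabp4 (48.1 with CM-veh, against 56.7 with RPMI), Cd36 (647 with CM-veh, against 683 with RPMI) and Lpl (2948 with CM-veh, against 3774 with RPMI) stayed inside the fold.

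Ribosome biogenesis, the making of ribosomes in the nucleolus, was another group with no lower member. Of 34 kept members 15 were higher and 0 lower, with a median log2 ratio of 0.50. Heatr1, a factor of small subunit assembly, had a mean of 52.0 with CM-veh, against 17.6 with RPMI. Ddx21, a helicase, had 324 with CM-veh, against 169 with RPMI, Nop56, a core protein of small nucleolar particles, 70.5 with CM-veh, against 37.0 with RPMI, and Nop16 28.3 with CM-veh, against 14.4 with RPMI. The proteins of the ribosome itself did not show this. Of 80 kept ribosomal protein genes 2 were higher and 0 lower, with a median log2 ratio of 0.00, and the 2 higher genes, Rpl12 (13.98 with CM-veh, against 7.61 with RPMI) and Rpl9 (25.5 with CM-veh, against 13.9 with RPMI), belong to families with many processed copies that can share reads. Hspa8, a constitutive chaperone, was 1.99-fold higher at 935 with CM-veh and 469 with RPMI. It was the only one of 15 kept heat shock genes past the fold (6.67%, beside 7.45% higher among all kept genes). Of these 15 genes, 14 had the higher mean with CM-veh.

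**Figure D4:**
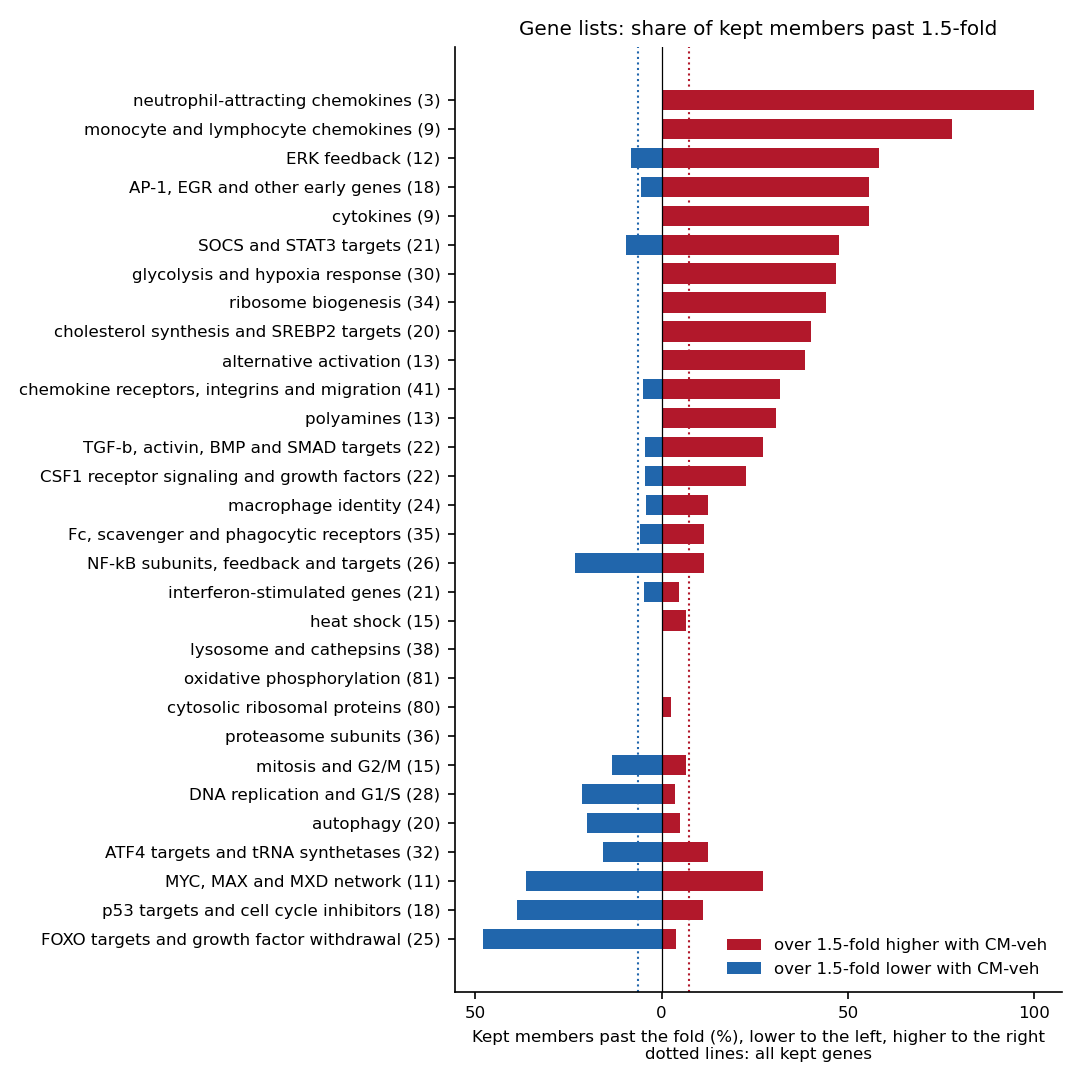
Share of kept members past 1.5-fold in 30 of the 62 gene lists (number of kept members in brackets), higher with CM-veh to the right in red and lower with CM-veh to the left in blue. Dotted lines give the share of all kept genes, 7.45% higher and 6.30% lower. Of the lists drawn, that of neutrophil chemokines reaches farthest right and the FOXO list farthest left.

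Genes of chemokine receptors, integrins and migration were past the fold mostly on the higher side. Of 41 kept members 13 (31.7%) were higher and 2 (4.88%) lower, beside 7.45% and 6.30% of all kept genes. The median log2 ratio was 0.05, so most members were near equal means. Ccr1, a receptor of Ccl3, Ccl6, Ccl7 and Ccl9, had a mean of 69.3 with CM-veh, against 12.8 with RPMI. Plaur, the receptor of urokinase, had 124 with CM-veh, against 30.8 with RPMI, and its ligand Plau was 1.66-fold higher. Mmp19, a matrix protease, and Timp1, an inhibitor of such proteases, were 3.87-fold and 4.19-fold higher. Itga5 and Itgav, integrin chains for fibronectin and related matrix, were 1.80-fold and 1.84-fold higher. The 2 lower members were Itga4, the chain that binds VCAM1 (22.7 with CM-veh, against 55.7 with RPMI), and Cxcr4, the receptor of CXCL12 (9.01 with CM-veh, against 24.8 with RPMI). The leukocyte integrins Itgam (349 with CM-veh, against 337 with RPMI) and Itgb2 (226 with CM-veh, against 243 with RPMI) were not past the fold.

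Uptake receptors, lysosomes and antigen presentation were close to equal means. Of 35 kept Fc, scavenger and uptake receptors 4 (11.4%) were higher and 2 (5.71%) lower, with a median log2 ratio of 0.00. Besides Fcgr1 and Msr1 the higher members were Itgav and Clec4n (1.68-fold), and the lower ones were Mertk and Sirpa, the receptor of the signal CD47 (443 with CM-veh, against 709.7 with RPMI). None of 38 kept genes of lysosomes and cathepsins was past the fold either way, and their log2 ratios ran from -0.55 to 0.52. Likewise none of 81 kept genes of oxidative phosphorylation was, with a range of -0.36 to 0.48. Among 8 kept genes of MHC class II none was past the fold, and H2-Ab1 had a mean of 42.1 with CM-veh, against 39.5 with RPMI. Beside these counts of 0 stand the shares of all kept genes, 7.45% higher and 6.30% lower. The 36 kept proteasome subunits had a median log2 ratio of 0.24 and 33 of them had the higher mean with CM-veh, yet none was past the fold.

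Genes on a list of NF-kB subunits, feedback genes and targets were past the fold on both sides, and few interferon-stimulated genes were past it. Il1b, Ccl2 and Cxcl2, higher as given above, were not on the NF-kB list. Of 26 kept NF-kB genes 3 (11.5%) were higher and 6 (23.1%) lower, beside 7.45% and 6.30% of all kept genes. Their median log2 ratio was -0.13. Ier3, named above, had the largest ratio of them (308 with CM-veh, against 53.7 with RPMI). Nfkbia, the inhibitor that NF-kB induces, had a mean of 322 with CM-veh, against 207 with RPMI, and Zc3h12a, an RNase that destroys inflammatory transcripts, 23.1 with CM-veh, against 8.85 with RPMI. Relb, a subunit of NF-kB, had 10.6 with CM-veh, against 19.9 with RPMI, Birc3, an inhibitor of cell death, 6.25 with CM-veh, against 11.2 with RPMI, and Tnfaip2 149.7 with CM-veh, against 260.3 with RPMI. Of 21 kept interferon-stimulated genes 1 (4.76%) was higher, Trim30a (1.55-fold), and 1 (4.76%) lower, Irf1 (14.4 with CM-veh, against 32.7 with RPMI). Of these 21 genes, 17 had the higher mean with CM-veh, with a median log2 ratio of 0.18. Of 22 kept genes of Toll-like receptors and their adaptors 2 (9.09%) were higher and 1 (4.55%) lower, near the shares of all kept genes. The lower one was Tlr6 (9.29 with CM-veh, against 14.6 with RPMI). Tlr2 (35.8 with CM-veh and 26.8 with RPMI) and Tlr4 (24.3 with CM-veh and 20.3 with RPMI) were inside the fold on the higher side, and Tlr7 (29.9 with CM-veh and 43.1 with RPMI) on the lower side, past it when scaled without the 20 most abundant genes. Sphk1, the kinase that makes sphingosine phosphate, had 6.86 with CM-veh, against 1.01 with RPMI, both under the limit of 10.

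Among lists with at least 10 kept members, the FOXO list had the largest share of lower genes. FOXO factors are active when growth factor signals are weak, and they switch on genes that slow growth. Of 25 kept members of the FOXO and growth factor withdrawal list 12 were lower and 1 higher, against 6.30% and 7.45% of all kept genes, with a median log2 ratio of -0.55. Sesn1, a sestrin that restrains the growth kinase mTORC1, had a mean of 14.3 with CM-veh, against 39.6 with RPMI. Cited2, a transcriptional coregulator, had 14.8 with CM-veh, against 40.8 with RPMI, and Klf2, a factor that keeps myeloid cells quiet, 4.52 with CM-veh, against 12.3 with RPMI. Cdkn1b, the cell cycle inhibitor p27, had 12.8 with CM-veh, against 28.2 with RPMI, and Foxo3 itself 25.3 with CM-veh, against 46.9 with RPMI. These 5 genes were between 1.86-fold and 2.78-fold lower. The exception was Btg1, a growth inhibitor, at 313 with CM-veh, against 133 with RPMI. The members inside the fold lay mostly on the same side, so that 23 of 25 had the lower mean with CM-veh.

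**Figure D5:**
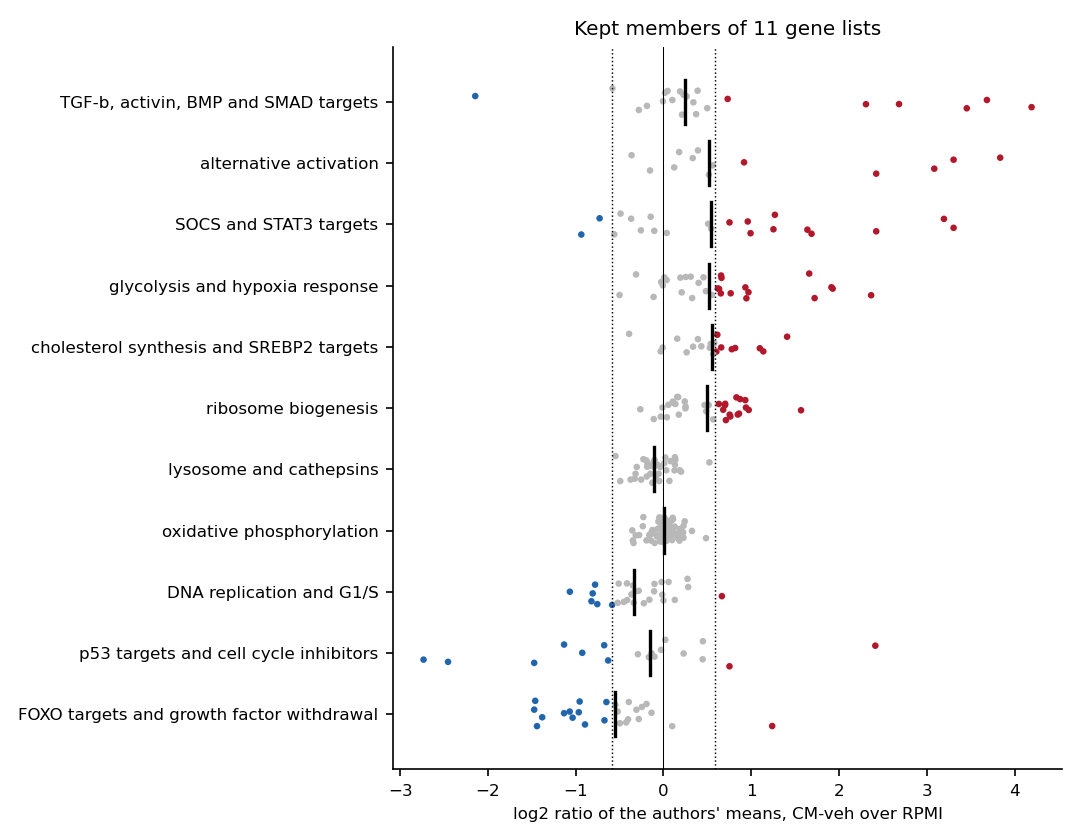
log2 ratio of the authors' means, CM-veh over RPMI (horizontal axis), of each kept member of 11 gene lists, with genes higher with CM-veh in red, lower in blue and others in grey. Black bars are list medians, from 0.55 for cholesterol synthesis to −0.55 for the FOXO list, and dotted lines mark 1.5-fold either way.

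Cell cycle inhibitors and targets of p53 followed in part. Of 18 kept members 7 were lower and 2 higher. Bbc3, the death-promoting protein PUMA at chr7:16308393-16318205, was 6.65-fold lower, with a mean of 3.57 with CM-veh, against 23.8 with RPMI. Trp53inp1, a p53 partner in stress, was 5.48-fold lower, with 2.52 with CM-veh, against 13.8 with RPMI. Bbc3 and Trp53inp1 were both kept through their RPMI mean alone. Standard p53 targets such as Cdkn1a, the inhibitor p21 (459 with CM-veh, against 392 with RPMI), Mdm2 (112 with CM-veh, against 114 with RPMI) and Ccng1 (69.1 with CM-veh, against 75.8 with RPMI) were not past the fold. Plk3, a stress kinase, went the other way, at 21.2 with CM-veh, against 3.97 with RPMI. Bbc3 and Sesn1 are targets of FOXO as well as of p53, and Sesn1 and Cdkn1b are counted in both lists. Their promoters are shown because they were among the members of these lists with the lowest ratios. Capitals mark TGTTTAC, the reverse complement of the FOXO site GTAAACA.
Sesn1 promoter (chr10:41810324-41810623, plus strand of GRCm38.p6): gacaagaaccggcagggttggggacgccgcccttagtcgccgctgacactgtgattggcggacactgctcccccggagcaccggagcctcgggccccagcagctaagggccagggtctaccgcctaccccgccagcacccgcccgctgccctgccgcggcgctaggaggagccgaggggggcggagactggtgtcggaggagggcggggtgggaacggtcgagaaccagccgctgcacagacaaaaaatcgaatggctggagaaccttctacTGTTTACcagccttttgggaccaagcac
Bbc3 promoter (chr7:16310011-16310310, plus strand of GRCm38.p6): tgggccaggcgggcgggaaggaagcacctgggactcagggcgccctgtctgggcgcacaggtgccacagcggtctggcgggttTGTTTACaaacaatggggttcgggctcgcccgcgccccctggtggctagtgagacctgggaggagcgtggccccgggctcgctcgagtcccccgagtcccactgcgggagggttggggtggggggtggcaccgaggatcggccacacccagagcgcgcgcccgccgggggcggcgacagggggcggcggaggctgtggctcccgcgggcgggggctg
Each of these windows belongs to a gene with several starts and is the one that held the motif. It stood in 21 of 496 windows of the lower genes (4.23%), 14 of 522 of the higher genes (2.68%) and 2.58% of all windows.

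Some repressors of the MYC network and some genes of DNA replication were lower. Of 11 kept members of the MYC list 4 were lower and 3 higher. Mxd4, a partner of MAX that opposes MYC, lies at chr5:34173883-34187720 and had a mean of 15.9 with CM-veh, against 56.0 with RPMI. Mnt, of the same group, had 14.5 with CM-veh, against 28.7 with RPMI, while Mxi1, which HIF-1 induces, was 3.30-fold higher, and Myc was under the limit at 3.00 with CM-veh, against 1.26 with RPMI. Of 28 kept genes of DNA replication and the start of S phase 6 (21.4%) were lower and 1 (3.57%) higher, with a median log2 ratio of -0.33. Some lower members were kept through RPMI alone, among them Mcm4, Pold1 (6.47 with CM-veh, 13.6 with RPMI) and Rrm2 (5.84 with CM-veh, 10.2 with RPMI). Mcm2 and Mcm4, subunits of the replicative helicase, had means of 11.1 with CM-veh and 19.7 with RPMI for Mcm2, and of 9.88 with CM-veh and 17.0 with RPMI for Mcm4. The higher member was Ccnd2, a cyclin that growth factors induce, at 96.5 with CM-veh, against 60.8 with RPMI. Of 15 kept genes of mitosis 2 (13.3%) were lower and 1 (6.67%) higher. Mki67 was inside the fold, at 22.97 with CM-veh, against 28.4 with RPMI. Most cell cycle genes were close to the limit of 10, and 45 and 39 members of these lists had a row.

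Some autophagy genes were lower and 1 was higher, whereas the abundant ones named here were inside the fold. Ulk1, the kinase that initiates autophagy, had a mean of 4.04 with CM-veh, against 14.5 with RPMI, and Ulk2 17.5 with CM-veh, against 27.1 with RPMI. Atg14, a subunit of the lipid kinase complex, was 1.58-fold lower. Map1lc3b (152 with CM-veh, against 139 with RPMI), Gabarap (258 with CM-veh, against 230.1 with RPMI) and Sqstm1 (391 with CM-veh, against 443 with RPMI), which coat and fill autophagosomes, were inside the fold. Optn was lower too, at 8.68 with CM-veh, against 13.4 with RPMI, and Atg16l1 was 1.51-fold higher. In all, 4 of 20 kept members (20%) were lower and 1 (5%) higher, beside 6.30% and 7.45% of all kept genes. The stress pathway of ATF4, a factor that responds to lack of amino acids, had 5 of 32 kept members (15.6%) lower and 4 (12.5%) higher. Inside the fold most members lay on the lower side, so that 25 of 32 had the lower mean with CM-veh, with a median log2 ratio of -0.12. Trib3 and Ddit3 were lower (2.77-fold and 1.87-fold), Slc7a11, the cystine transporter, was 4.39-fold higher at 48.5 with CM-veh and 11.0 with RPMI, and the tRNA synthetases of the list lay inside the fold, whereas Rars and Farsa, synthetase genes outside the list, were 1.62-fold and 1.68-fold higher. Herpud1, a gene of protein disposal in the endoplasmic reticulum, was 2.31-fold lower, while the chaperone Hspa5 was 1.65-fold higher.

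Iron export and transcripts without a standard poly(A) tail gave some of the lowest ratios. Slc40a1, ferroportin, the iron exporter at chr1:45908068-45926523, had a mean of 14.8 with CM-veh, against 54.2 with RPMI. The ferritin genes were level, and Hmox1, the enzyme that opens heme, was 1.92-fold higher, at 275 with CM-veh and 144 with RPMI. Rn7sk, the small nuclear RNA 7SK that holds back the elongation kinase P-TEFb, is made by RNA polymerase III, lies at chr9:78175303-78175633 and had 28.5 with CM-veh, against 169.7 with RPMI, a 5.96-fold difference. Among histone genes that are copied with DNA, H1f2 had 119 with CM-veh, against 321 with RPMI, H2bc4 61.3 with CM-veh, against 148 with RPMI and H2aw 20.8 with CM-veh, against 72.5 with RPMI. On a list of these genes drawn up after the values were seen, 4 of 7 kept members were lower and 1, Hist1h2ao (40.7 with CM-veh, against 19.4 with RPMI), was higher, and near-identical copies can share their reads. The libraries were primed on poly(A), so such transcripts are read only where they carry or mimic a tail. The 29 mitochondrial genes took 6.21% of the summed means with CM-veh and 7.34% with RPMI. Whether RNA quality or priming took part in these differences was not tested.

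The remaining genes with the lowest ratios at or above the median level had varied roles. Rassf4, a relative of tumour suppressors that bind RAS, had a mean of 112 with CM-veh, against 328 with RPMI. Crebrf, a regulator of stress factors, had 20.8 with CM-veh, against 61.7 with RPMI, and Gpcpd1, an enzyme of choline metabolism, 11.2 with CM-veh, against 35.3 with RPMI. Fgd4, an activator of the GTPase CDC42, had 24.0 with CM-veh, against 68.1 with RPMI, and Ptpro, a receptor phosphatase, 13.6 with CM-veh, against 37.0 with RPMI. Ppfibp2 (18.5 with CM-veh, against 52.7 with RPMI), 9930111J21Rik2 (20.2 with CM-veh, against 65.0 with RPMI) and Gm4739 (25.5 with CM-veh, against 69.2 with RPMI) complete the 15 with the lowest ratios. All of these lay between 2.70-fold and 3.66-fold lower apart from Rn7sk. Nr1d2, a repressor of the circadian clock, was 2.43-fold lower, Rora, the activator that competes with it, 2.14-fold, and Bhlhe40, a further clock repressor, was 2.53-fold higher.

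In absolute terms a few abundant genes accounted for the largest differences in mean. Above RPMI, these were Actb (21748 with CM-veh and 17884 with RPMI), Ccl6, Id2, Tgm2, Pf4, Actg1 (2959 with CM-veh and 2377 with RPMI), Ctsd, Tuba1c (1157 with CM-veh and 620.4 with RPMI), Lgals3 (4512 with CM-veh and 4018 with RPMI) and Ccl9. The actin genes were 1.22-fold and 1.24-fold higher and therefore inside the fold, and of 22 kept actin and SRF genes only Zyx (1.63-fold) was past it. Below RPMI, the largest differences were those of AY036118, mt-Rnr2, mt-Rnr1 (7619 with CM-veh and 9631 with RPMI), Psap, CT010467.1, Lpl, Gpnmb (4657 with CM-veh and 5175 with RPMI), mt-Atp6 (3139.9 with CM-veh and 3533 with RPMI), Itm2b (1523 with CM-veh and 1871 with RPMI) and Eef1a1 (2266 with CM-veh and 2584 with RPMI). None of these 10 was past the fold.

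The means with CM-IL1 are set beside those of CM-veh for the genes above, as values only, because both media are compared with the same 4 RPMI libraries. Il1b had a mean of 67.9 with CM-veh, 382 with CM-IL1 and 7.50 with RPMI, and Arg1 92.1 with CM-veh, 333 with CM-IL1 and 6.45 with RPMI. Socs3 had 11.0 with CM-veh, 57.0 with CM-IL1 and 1.21 with RPMI, and Tgm2 824 with CM-veh, 2005 with CM-IL1 and 97.1 with RPMI. For these genes the CM-IL1 mean was the highest of the 3. Jag1 was an exception among the higher genes, with 61.8 with CM-veh, 47.0 with CM-IL1 and 7.43 with RPMI. Cyp51 had 60.7 with CM-veh, 46.5 with CM-IL1 and 27.6 with RPMI, and Sqle 26.9 with CM-veh, 19.9 with CM-IL1 and 15.7 with RPMI. For both of these cholesterol genes the CM-veh mean was the highest. Hmox1 had 275 with CM-veh, 155 with CM-IL1 and 144 with RPMI, so that its mean with CM-IL1 was close to that of RPMI. Among lower genes Sesn1 had 14.3 with CM-veh, 4.19 with CM-IL1 and 39.6 with RPMI, and Rn7sk 28.5 with CM-veh, 26.1 with CM-IL1 and 169.7 with RPMI. Sesn1 was thus lowest with CM-IL1, and Rn7sk had nearly equal means in both conditioned media.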

How the data were processed

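RNA of BMDMs was sequenced by the authors as 3′ mRNA libraries (QuantSeq, primed with oligo-dT, stranded, single-end), 4 libraries per medium. The submitters' processing notes name cutadapt, STAR, Partek and the build mm10, without versions. Whether counting used the strand, and how values were normalised, could not be learned from these sources. The authors' deposited table holds 1 least-squares mean per group and gene, a signal value scaled to nearly the same column sum (996561 and 996052). No source says if that unit is CPM or TPM. Of its 6 columns of means 3 were used, 1 for each group. A further 12 columns hold the p-values, adjusted p-values, ratios and folds of the authors' own comparisons. They were not used. No column held values of single libraries (0), so library depth, replicate spread and the precision of each mean are unknown. Nothing read here says if a group's 4 libraries were separate cultures, or if the control cells had fresh RPMI.

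From the means, ratios of CM-veh over RPMI were computed in Python 3.11.15 with pandas 2.3.3 and numpy 2.4.6, and plots were drawn with matplotlib 3.10.9. No pseudocount was added. A gene was kept where the larger of its 2 means reached 10. A ratio of 1.5, the fold limit in the study's methods, was used either way. The steps were tested on simulated data. Gene lists were described by the number of members past the fold and by the median log2 ratio, with no test. A gene can stand in several lists. The comparison and the lists were chosen with earlier results of these data known, and 2 lists (cyclic AMP genes and histones copied with DNA) were added after the values were seen. The genes named are the 15 each way with the largest ratio at or above the median level, up to 4 members of each list with the largest log2 ratio and those past the fold against the rest of the list, 6 genes that the study names for these cells, the 10 with the highest mean and the 10 each way with the largest difference. Other members named were chosen after their values were seen. Symbols turned into dates (7 genes) were left unnamed, and some genes that the rule takes are not reported here. Gene positions come from GENCODE vM21 on GRCm38, which is mm10, and promoter windows (250 bases before to 50 after a start) from RefSeq on GRCm38.p6. The windows printed were chosen after the motif matches were seen. Alternatives were other limits on the mean, a 2-fold limit, centring on the median ratio, a pseudocount of 1, scaling without the 20 most abundant genes and, added after seeing the data, a limit on the average of both means.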

Additional observations from a re-analysis of the deposited data

How the results depend on the processing

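No paired analysis was possible because the table holds group means and no value per library, and for the same reason no replicate could be left out. The counts of genes past the fold depended on the limit on the mean more than on any scaling. With a limit of 1, or with none, 896 genes were higher with CM-veh and 1213 were lower, and with a limit of 50 the counts were 260 and 82, so that which direction held more genes changed with the limit, 539 higher and 456 lower being the counts at 10. A 2-fold limit gave 194 higher and 106 lower. Centring gave 523 and 471, a pseudocount of 1 gave 502 and 402, scaling without the 20 most abundant genes gave 444 and 576, and a limit on the average of both means gave 489 and 365. Means repeated in other columns of the table were planned as an alternative and were not run. Scaling without the 20 most abundant genes also turned the balance of directions, since it moved the median log2 ratio by -0.07. Of 247 named genes past the limit on the mean, 239 kept their side of the fold under that scaling, 243 with the pseudocount and 247 after centring, and no called gene changed direction under any of the 3. Nfkbia, Trim30a, Ppard, Mlx, Atg16l1 and Zfp771 were no longer past the fold under that scaling, at log2 ratios of 0.57, 0.56, 0.58, 0.54, 0.53 and 0.56. Among list counts that scaling gave 12 lower solute carriers in place of 7, 2 lower members of the TGF-β list and of the Toll-like receptor list in place of 1, 1 lower lysosomal and 1 lower polyamine gene in place of 0, and 0 higher interferon-stimulated and autophagy genes in place of 1. Centring also gave 2 lower members of the TGF-β list, and the pseudocount 0 higher autophagy genes. Tfeb and Tlr7 passed it under that scaling only, at -0.62 and -0.60. Klf9, Mlx, Optn and Atg16l1 were no longer past it with the pseudocount, at -0.56, 0.57, -0.57 and 0.57. How many reads stand behind a mean close to the limit of 10 is not known.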

Other observations

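The deposited means of resting EGCs, made from 3 libraries given vehicle for 24 h, list the RNA of signals that the glia could have released into the medium. They come from a separate table that was normalised on its own, so levels are not compared between the cell types, and RNA does not show that a protein was in the medium. Among 36 ligands listed, Sparc (8215), Saa3 (5869) and C3 (2061) had the highest EGC means. Growth factors that act on macrophages were present, with Csf1 at 106, Gas6, the ligand of Mertk and Axl, at 387, Pros1 at 219 and Il34, the second ligand of the CSF1 receptor, at 15.5. Of the TGF-β family, Tgfb2 had 103, Tgfb3 23.1, Inhba 25.0 and Tgfb1 11.8. Chemokine genes that were higher in BMDMs with CM-veh had RNA in the EGC cultures too, Ccl7 at 76.8 and Ccl2 at 55.0. These cultures also held small numbers of neurons and fibroblasts, so the means cannot assign a transcript to the glia. Il6 had 5.58 and Cxcl5 44.6. The median of all genes in that table was 16.2.

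Carriers of metals, amino acids and organic acids held members on both sides of the fold in BMDMs. Of 112 kept solute carriers 13 (11.6%) were higher with CM-veh and 7 (6.25%) lower, beside 7.45% and 6.30% of all kept genes, and scaling without the 20 most abundant genes gave 12 higher and 12 lower. Slc39a14, an importer of zinc and iron, had a mean of 13.3 with CM-veh, against 2.95 with RPMI, and Slc30a1, the zinc exporter of the cell membrane, 25.6 with CM-veh, against 43.1 with RPMI. Slc39a14 and Slc26a11 stood at the 2 ends of the kept carriers, at 4.52-fold higher and 3.68-fold lower. Slc26a11 had 3.87 with CM-veh, against 14.2 with RPMI, and was kept through RPMI alone. Slc7a11 and Slc40a1 came next, at 4.39-fold higher and 3.66-fold lower. Slc43a2, a carrier of neutral amino acids, had 235 with CM-veh, against 417 with RPMI, and Slc16a6, a carrier of the ketone body family, 94.5 with CM-veh, against 163 with RPMI. The metallothionein genes, which zinc induces, were inside the fold, with Mt1 at 1075 with CM-veh and 748 with RPMI and Mt2 at 330.0 with CM-veh and 396 with RPMI. Of 77 kept Zfp genes 5 (6.49%) were higher and 10 (13%) lower, beside the same shares of all kept genes, and Zfp516 had the highest ratio of them (62.5 with CM-veh, against 26.2 with RPMI).

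Purine receptors differed by member. Adora2b was given above; P2ry2, a receptor for ATP and UTP, had 21.0 with CM-veh, against 9.41 with RPMI, and P2rx7, the ATP-gated channel that triggers the release of IL-1β, had 16.8 with CM-veh, against 30.2 with RPMI. Nt5e, the enzyme that makes adenosine outside the cell, was under the limit on the mean at 7.11 with CM-veh, against 0.879 with RPMI. Glucocorticoid targets went both ways, with Fkbp5 at 11.2 with CM-veh, against 6.78 with RPMI and Tsc22d3 at 20.9 with CM-veh, against 43.9 with RPMI. No gene of the prostaglandin list was past the fold among 9 kept members, beside 7.45% higher and 6.30% lower among all kept genes. With only 9 members this count cannot be set apart from those shares. Ptgs2, the inducible cyclooxygenase, was not analysed here.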
